A study of Mus musculus with 6 samples.

Results

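Malat1, Neat1, Kcnq1ot1, Gas5, Snhg1, Snhg12, Rmrp, Rpph1 and Rn7sk are noncoding RNAs that were listed by gene name as abundant long or structural transcripts of 3T3-L1 adipocytes, by a rule that uses no measured value, although earlier results of these data were known when the list was made. Of these 9 genes, 8 were found among the 45706 genes of the count table, and all 8 passed the filter on low counts that left 11440 genes for testing. Snhg1 was not analysed here. 3T3-L1, a mouse embryonic fibroblast line that differentiates into adipocytes, was transduced with lentivirus carrying a scrambled control short hairpin RNA (genotype WT in the labels) or an Rbms1 short hairpin RNA (RBMS1 knockdown) and selected with puromycin, with 3 cultures per group. Both groups received the same adipogenic cocktail of IBMX, insulin, dexamethasone and rosiglitazone and were harvested on day 7. The selected cells were a transduced population, and the methods call the replicates of a group biological without saying that they came from separate transductions. The p-values thus rest on the spread between these cultures, with the spread of each gene drawn toward a trend over all genes. RNA was depleted of ribosomal RNA and made into stranded total RNA libraries with random primers, so that RNAs without a poly(A) tail could be counted.

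RBMS1 is an RNA-binding protein that regulates mRNAs, and these noncoding RNAs act without encoding a protein, as scaffolds, as catalytic subunits or as carriers of smaller RNAs. Malat1 and Neat1 are nuclear RNAs transcribed from adjacent genes: Malat1 concentrates in nuclear speckles, where splicing factors are stored, and the long form of Neat1 is the scaffold of paraspeckles. Kcnq1ot1 is transcribed from the paternal allele across the Kcnq1 gene and silences neighbouring imprinted genes. Gas5 and Snhg12 carry small nucleolar RNAs (snoRNAs) in their introns, and the spliced RNA of Gas5 is short-lived because translation exposes it to nonsense-mediated decay. Rmrp and Rpph1 are the RNA subunits of RNase MRP and RNase P, which process precursors of ribosomal and transfer RNA, and Rn7sk is the 7SK RNA, which holds the elongation kinase P-TEFb inactive.

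Sequences that mark how these RNAs are built or held in protein complexes are shown first, as DNA letters from the 5′ to the 3′ end, and were read from GENCODE M21 transcripts on GRCm38. Malat1 and the long form of Neat1 are not polyadenylated at their mature ends, unlike the short form of Neat1. Each ends instead in U-rich tracts that fold back on an A-rich tract to form a triple helix. The stretches below are bases 6594 to 6752 of Malat1 (chr19:5795921-5796079, minus strand), which run on into the small tRNA-like RNA cleaved from it by RNase P, and the last 100 bases of Neat1 (chr19:5824708-5824807, minus strand). Capitals mark the 2 U-rich tracts (runs of T split by C or GC) and the A-rich tract of each.
Malat1: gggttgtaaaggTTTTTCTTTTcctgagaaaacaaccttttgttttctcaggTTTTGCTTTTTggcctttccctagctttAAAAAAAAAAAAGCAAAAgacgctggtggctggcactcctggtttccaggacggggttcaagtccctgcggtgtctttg
Neat1: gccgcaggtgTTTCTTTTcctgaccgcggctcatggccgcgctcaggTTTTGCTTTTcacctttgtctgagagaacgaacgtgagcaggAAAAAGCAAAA
The 5′ end of 7SK binds the HEXIM proteins at repeated GATC letters. The first 110 bases of Rn7sk (chr9:78175524-78175633, minus strand) held 3 copies, in capitals below. Among 5627 annotated transcripts of 250 to 350 bases, 0.871% held as many within their first 110 bases on the transcribed strand.
Rn7sk: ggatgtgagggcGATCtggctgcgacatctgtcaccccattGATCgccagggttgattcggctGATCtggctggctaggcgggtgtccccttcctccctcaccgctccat
Rmrp and Rpph1 are related RNAs that share most of their protein subunits. Rmrp is shown whole (chr4:43492788-43493058, minus strand), with the first 300 of the 319 bases of Rpph1 (chr14:50807468-50807767, minus strand). Capitals mark bases within any run of at least 7 that occurs in both printed stretches, and adjoining runs are merged. The runs do not all come in the same order in both RNAs. How many such runs unrelated RNAs of this length and GC content share was not counted.
Rmrp: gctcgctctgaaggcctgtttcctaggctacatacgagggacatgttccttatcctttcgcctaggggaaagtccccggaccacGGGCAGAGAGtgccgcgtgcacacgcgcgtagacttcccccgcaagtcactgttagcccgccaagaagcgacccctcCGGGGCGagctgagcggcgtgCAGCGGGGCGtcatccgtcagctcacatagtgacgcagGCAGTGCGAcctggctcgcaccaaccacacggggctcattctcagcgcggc
Rpph1: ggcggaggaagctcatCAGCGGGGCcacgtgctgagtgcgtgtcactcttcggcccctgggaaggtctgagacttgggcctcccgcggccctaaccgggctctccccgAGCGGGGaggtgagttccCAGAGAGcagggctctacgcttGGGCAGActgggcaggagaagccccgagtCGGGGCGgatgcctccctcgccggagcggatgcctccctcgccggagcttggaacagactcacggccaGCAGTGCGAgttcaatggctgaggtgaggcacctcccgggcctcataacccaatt
The GC content was 64.2% in Rmrp, 67.1% in Rpph1 and 58.0% in Rn7sk, above that of 99.5%, 99.8% and 90.9% of the tested genes, each taken at its longest transcript (median 49.4%). The long RNAs were below the median, from 40.3% in Kcnq1ot1 to 47.6% in Snhg12.

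Host genes of snoRNAs often start at a pyrimidine tract, as the genes for the translation machinery do. RefSeq promoters on GRCm38.p6 were matched for Gas5, Snhg12, Kcnq1ot1 and Malat1. The 75 bases around one of the start sites of Gas5 (chr1:161035121-161035195, plus strand) and around that of Snhg12 (chr4:132308633-132308707, plus strand) are shown because these hosts share their layout. Capitals mark a TATA box (TATAAA or TATATA, 20 to 40 bases before the start) and a tract of C followed by at least 4 pyrimidines within 10 bases of the start, both searched on the gene's strand.
Gas5: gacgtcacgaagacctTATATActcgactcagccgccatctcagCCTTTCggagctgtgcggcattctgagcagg
Snhg12: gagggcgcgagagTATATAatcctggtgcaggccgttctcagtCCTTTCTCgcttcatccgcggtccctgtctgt
The TATA box began 29 bases before the start site in Gas5 and 32 bases before it in Snhg12. Both features occurred together in 304 of 32851 RefSeq promoters (0.925%), the TATA box in 2.73% and the tract in 29%. The other start site of Gas5 and those of Kcnq1ot1 and Malat1 held neither in these windows.

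RBMS-family proteins prefer AU-rich letters such as AUAUA in binding assays. On the transcribed strand of the longest annotated transcript, with overlapping copies counted, ATATA occurred 247 times in Kcnq1ot1, or 2.65 per kb, a density above that of 94.9% of the tested genes. It occurred 5 times in Malat1 (0.716 per kb), 13 times in Neat1 (0.626 per kb), 2 times in Gas5 (0.783 per kb) and 1 time in Snhg12 (0.650 per kb), where the median of the tested genes was 0.553 per kb. Rmrp, Rpph1 and Rn7sk held none, as did all but 12.4% of the annotated transcripts of 250 to 350 bases. Only 7.76% of the tested genes had a lower GC content than Kcnq1ot1, and densities were not compared at matched base composition. These letters describe the sequences and are not binding sites.

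Rbms1 itself was lower in every knockdown library, with a normalized level of 113, 102 and 99.6 CPM in the scrambled control cultures and 49.2, 61.4 and 84.0 CPM in the RBMS1 knockdown cultures. Here and below, values follow replicates 1, 2 and 3. CPM are counts relative to the library size after TMM scaling (per 1e+06), which sets the bulk of genes level between libraries. This difference of -0.69 on the log2 scale (standard error 0.20) had an adjusted p of 0.185 (edgeR's quasi-likelihood test, Benjamini-Hochberg adjustment), above the threshold of 0.1. Total counts ranged from 3142695 to 11073098, and a level of 3 counts corresponds to between 0.220 and 1.49 CPM. Gene models that collect ribosomal RNA reads (mt-Rnr1, mt-Rnr2, Yam1 and Gm26917) held 13.7%, 43.0% and 17.8% of the counts in the control libraries and 9.84%, 16.2% and 8.12% in the knockdown libraries. Scrambled control replicate 2 stood apart with the fewest counts and the largest share of such reads. The gene models differed there, as Gm26917 had its lowest count of the 6 libraries (62498). Yam1, mt-Rnr1 and mt-Rnr2 had their highest (851138, 287190 and 151843). Of the adipocyte markers, 9 of 10 tested lay below 0, and Retn, which encodes resistin, fell (log2 fold change -1.67, adjusted p = 0.0967 by the same edgeR test). The summed adipocyte markers were 21790 to 25090 CPM in the controls and 11790 to 21060 in the knockdown libraries, and Lpl, which encodes lipoprotein lipase and was chosen after its values were seen, held a large part of these sums (11960 to 14510 and 5350 to 10210 CPM). Without Lpl the sums were 9517 to 11060 and 6444 to 10850 CPM, which overlap. The 10 fibroblast markers summed to 12680 to 14930 and 8062 to 17000 CPM. Macrophage and blood cell markers summed to at most 9.62 CPM and endothelial and epithelial markers to at most 6.76 CPM in any library. In bulk RNA, fewer cells that hold a transcript and less of it per cell cannot be told apart, and the part of the marker levels in the results below was not tested.

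None of the 8 noncoding RNAs differed between RBMS1 knockdown and scrambled control adipocytes at an adjusted p of 0.1 or less, where 1.22% of all tested genes (140 of 11440) did. A total of 6 had a log2 fold change below 0 and 2 above, with a median of -0.22 against 0.0044 for all tested genes. This median rested on single libraries, at -0.66 with RBMS1 knockdown replicate 2 left out (7 below 0), -0.34 and -0.079 with scrambled control replicates 1 and 2 left out, and -0.035 (4 below 0) and -0.023 with RBMS1 knockdown replicates 1 and 3 left out. Scaled by library size alone, 3 of the 8 lay below 0 and their median was 0.18, against 0.37 for all tested genes. The groups overlapped for all 8, whereas 18.5% of the tested genes had no overlap. Rpph1 alone had an unadjusted p under 0.05, as 12.4% of the tested genes did, and DESeq2 called none of the 8 either. The 95% intervals of 7 of the 8 held 0, and that of Rpph1 ended just below it. The edgeR standard errors on the log2 scale ran from 0.31 for Kcnq1ot1 to 0.61 for Malat1, against a median of 0.23 over all tested genes. For Malat1 and Neat1 they were 0.61 and 0.47 by edgeR, 0.27 and 0.68 by DESeq2, and 0.33 and 0.44 by limma-voom.

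**Figure D1:**
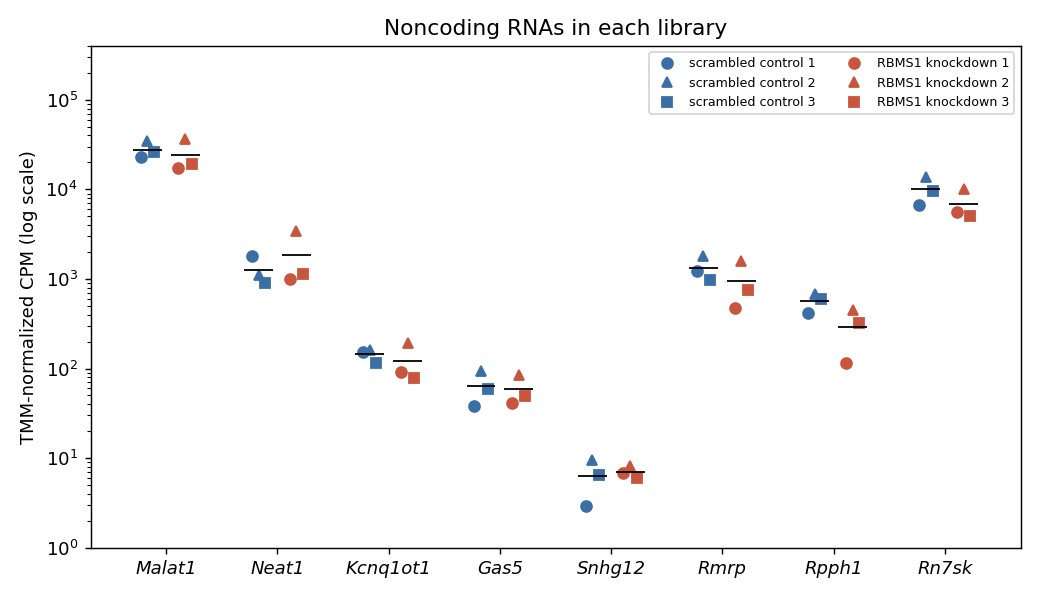
TMM-normalized CPM (log axis) of the 8 noncoding RNAs in each of the 3 scrambled control and 3 RBMS1 knockdown libraries. Symbols are single libraries by replicate number and bars are group means. The groups overlap for each RNA, and the triangles (replicate 2) lie at the top of the knockdown group throughout.

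Malat1 (ENSMUSG00000092341, GRCm38 chr19:5795690-5802672, minus strand, annotated as a long intergenic RNA, 6983 bases in 1 exon block) had 22720, 34578 and 26415 CPM in the controls and 17490, 36613 and 19061 CPM in the knockdown libraries. The highest and the lowest of the 6 values were both in knockdown libraries. Malat1 held between 1.97% and 4.01% of all counts in a library. The means were 27904 ± 6068 and 24388 ± 10616 CPM (SD, n = 3), with a fitted log2 fold change of -0.19 (standard error 0.61, 95% interval -1.57 to 1.18, adjusted p = 0.933 by edgeR's quasi-likelihood test). It ranged from -0.60 with RBMS1 knockdown replicate 2 left out to 0.0019 with replicate 1 of that group left out.

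Neat1 (ENSMUSG00000092274, chr19:5824708-5845478, minus strand, 20771 bases) lies 22036 bases from Malat1 on the same strand. Its levels were 1799, 1109 and 898 CPM in the controls and 1005, 3442 and 1147 CPM in the knockdown libraries. RBMS1 knockdown replicate 2 was far above the others, and the remaining knockdown libraries lay within the control range. The means were 1269 ± 471 and 1865 ± 1368 CPM (SD, n = 3), and the log2 fold change was 0.56 (standard error 0.47, 95% interval -0.50 to 1.61, adjusted p = 0.685 by the same edgeR test). It turned to -0.22 without that library and was 0.90 with scrambled control replicate 1 left out. Exon counts of the gene do not part the short from the long form of Neat1, of which the long one alone assembles paraspeckles. Frmd8, the next tested gene, lies 4224 bases from Neat1 and had a log2 fold change of 0.47 (adjusted p = 0.418 by the same edgeR test).

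Kcnq1ot1 (ENSMUSG00000101609, chr7:143203458-143296549, minus strand, annotated as antisense, 93092 bases in 1 exon block) had 154, 163 and 114 CPM in the controls and 92.3, 193 and 79.0 CPM in the knockdown libraries. A pair of knockdown libraries lay below the controls and the other lay above them. The log2 fold change was -0.24 (standard error 0.31, 95% interval -0.94 to 0.46, adjusted p = 0.810 by the same edgeR test). It ranged from -0.73 with RBMS1 knockdown replicate 2 left out (unadjusted p = 0.00743, adjusted p = 0.288 by that edgeR test) to -0.0035 with replicate 3 of that group left out, and was -0.071 with its replicate 1 left out. Kcnq1, the gene it crosses, had 1 count in all 6 libraries together. The 6 tested genes of the imprinted domain were divided evenly, with 3 below and 3 above 0 (median 0.039), and 0 were called. The most abundant of them, Cd81, which encodes a tetraspanin of the cell surface, had a log2 fold change of 0.21 (adjusted p = 0.662 by the same edgeR test). Cdkn1c and Phlda2, growth-restraining genes of the domain that were chosen after their values were seen, had at most 2 counts over all libraries and could not be tested.

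The snoRNA host Gas5 (ENSMUSG00000053332, chr1:161034422-161038539, plus strand, 3760 exonic bases over 25 transcripts) had 38.6, 93.8 and 58.7 CPM in the controls and 41.3, 85.7 and 49.3 CPM in the knockdown libraries. The knockdown values lay within the control range. Its log2 fold change was -0.11 (standard error 0.34, 95% interval -0.88 to 0.67, adjusted p = 0.933 by the same edgeR test), and it ranged from -0.47 with RBMS1 knockdown replicate 2 left out to 0.27 with scrambled control replicate 2 left out. Zbtb37, which overlaps Gas5 on the opposite strand and encodes a zinc finger protein, had a log2 fold change of 0.21 (adjusted p = 0.629 by the same edgeR test). The strand setting of the counting is not given in the sources used here.

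Snhg12 (ENSMUSG00000086290, chr4:132308623-132311024, plus strand, 2402 exonic bases) was the least counted of the 8, with 18, 19 and 38 counts in the controls and 48, 69 and 81 counts in the knockdown libraries. These correspond to 2.89, 9.43 and 6.54 CPM and to 6.90, 8.07 and 5.95 CPM. The knockdown libraries were close together within a wide control range. The log2 fold change was 0.22 (standard error 0.40, 95% interval -0.69 to 1.13, adjusted p = 0.875 by the same edgeR test), and it ranged from -0.16 with scrambled control replicate 1 left out to 0.56 with scrambled control replicate 2 left out. Snora44, a snoRNA within the Snhg12 gene that was chosen after its values were seen, had 7.21, 7.44 and 3.79 CPM in the controls and 1.87, 3.04 and 2.64 CPM in the knockdown libraries. Its groups did not overlap, unlike those of its host, but its log2 fold change of -1.25 did not pass the test (standard error 0.40, adjusted p = 0.227 by the same edgeR test), and the difference between host and snoRNA was not tested. Snhg12 is annotated as 1 exon block that fills its whole span, so Snora44 lies within its counted bases and reads may be shared. Of the 23 snoRNAs listed for Gas5, Snhg1 and Snhg12, 9 were in the table and 2 were tested.

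Rmrp (ENSMUSG00000088088, chr4:43492788-43493058, minus strand, annotated as a ribozyme, 271 bases) had 1238, 1803 and 977 CPM in the controls and 477, 1596 and 750 CPM in the knockdown libraries. The lowest values were those of RBMS1 knockdown replicates 1 and 3, and replicate 2 lay within the control range. The means were 1339 ± 422 and 941 ± 583 CPM (SD, n = 3), and the fitted log2 fold change was -0.51 (standard error 0.41, 95% interval -1.43 to 0.42, adjusted p = 0.673 by the same edgeR test). It ranged from -1.11 with RBMS1 knockdown replicate 2 left out (unadjusted p = 0.00938, adjusted p = 0.318 by that edgeR test) to -0.19 with replicate 1 of that group left out, and was -0.24 with scrambled control replicate 2 left out. Ccdc107, which overlaps it on the opposite strand, had a log2 fold change of -0.51 as well (adjusted p = 0.487 by the same edgeR test), at 14.1 ± 4.23 and 9.74 ± 1.58 CPM (SD, n = 3).

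Rpph1 (ENSMUSG00000092837, chr14:50807449-50807767, minus strand, annotated as a ribozyme, 319 bases) had the largest difference of the 8 in the TMM-scaled fit of all libraries. Its levels were 421, 679 and 599 CPM in the controls and 114, 445 and 319 CPM in the knockdown libraries. RBMS1 knockdown replicate 2 lay just above scrambled control replicate 1, and the other knockdown libraries were below all controls. The means were 566 ± 132 and 293 ± 167 CPM (SD, n = 3), a fitted ratio of 0.517. The log2 fold change was -0.95 (standard error 0.41, 95% interval -1.87 to -0.029, unadjusted p = 0.0445 and adjusted p = 0.388 by the same edgeR test), which did not pass. Parp2, which lies 74 bases away on the opposite strand and encodes a poly(ADP-ribose) polymerase, had a log2 fold change of -0.15 (adjusted p = 0.886 by the same edgeR test). Rpph1 was lower in the knockdown group under each of 16 alternative settings, from -1.37 to -0.53, with an adjusted p between 0.216 and 0.800 (edgeR, DESeq2 or limma-voom). By library sizes alone Neat1 (0.87) and Snhg12 (0.65) differed more than Rpph1 (-0.53). Without RBMS1 knockdown replicate 1, Neat1 (0.86) differed more than Rpph1 (-0.56).

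Rn7sk (ENSMUSG00000065037, chr9:78175303-78175633, minus strand, 331 bases) had 6668, 13928 and 9620 CPM in the controls and 5583, 10025 and 4999 CPM in the knockdown libraries. The lowest values again belonged to RBMS1 knockdown replicates 1 and 3. The means were 10072 ± 3651 and 6869 ± 2749 CPM (SD, n = 3), and the log2 fold change was -0.55 (standard error 0.45, 95% interval -1.56 to 0.46, adjusted p = 0.673 by the same edgeR test). It ranged from -0.92 with RBMS1 knockdown replicate 2 left out to -0.25 with scrambled control replicate 2 left out, and was -0.36 with RBMS1 knockdown replicate 3 left out. Rn7sk and Rpph1 had estimated counts that were not whole in 6 of 6 libraries and Snhg12 in 5 (tolerance 0.01), while those of Malat1, Kcnq1ot1, Gas5 and Rmrp were whole in every library.

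**Figure D2:**
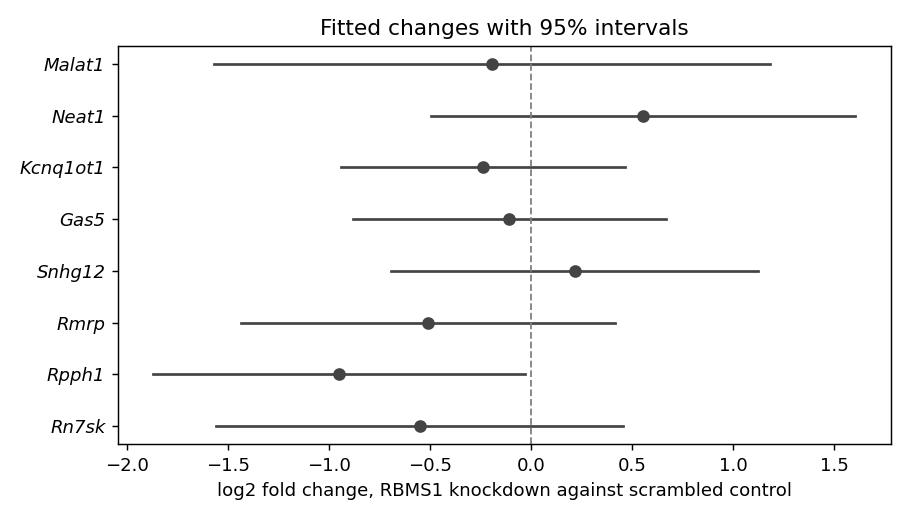
Fitted log2 fold change of each noncoding RNA, RBMS1 knockdown against scrambled control, with its 95% interval from edgeR (3 libraries per group). The interval of Rpph1 ends just below 0, at -0.029, and the other 7 hold 0.

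Per kb of annotated exon, the order of the mean CPM was the same in both groups, except that Rmrp and Malat1 changed places. Rn7sk was highest at 30428 CPM per kb in the controls and 20753 in the knockdown libraries, followed by Rmrp (4942 and 3472), Malat1 (3996 and 3492) and Rpph1 (1775 and 918). Neat1 (61.1 and 89.8), Gas5 (16.9 and 15.6), Snhg12 (2.62 and 2.90) and Kcnq1ot1 (1.54 and 1.31) followed, also in CPM per kb. Rmrp was above Malat1 in 4 of 6 libraries and Snhg12 above Kcnq1ot1 in 5 of 6. All other neighbours in this order kept it in 6 of 6 libraries, with no overlap in either group. Exonic length counts all annotated exons, so genes of many transcripts such as Gas5 and Snhg12, or of long ones such as Kcnq1ot1, are set low by this scale. How well RNAs as short as Rmrp, Rpph1 and Rn7sk are recovered in fragmented libraries was not tested, so the order is not one of true abundance.

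A library of each group was the highest for most of these RNAs. Each culture gave 1 library, so culture and library preparation cannot be told apart. RBMS1 knockdown replicate 2 was the highest of its group for 8 of 8 RNAs, against 29.2% of all tested genes, and scrambled control replicate 2 was the highest of the controls for 7 of 8, against 34.5%. Both held for 7 of the 8 RNAs and for 12.9% of the tested genes. Neat1 was the exception, with its highest control value in replicate 1. The same libraries had the largest share of ribosomal RNA-derived reads in their groups (43.0% and 16.2%), and its part in these levels was not tested. The place of RBMS1 knockdown replicate 2 did not depend on the scaling, as it was highest for 8 of 8 RNAs also by library size alone (19.4% of all tested genes) and by library size without the ribosomal RNA-derived genes (29.4%). That of scrambled control replicate 2 did, for these RNAs as for all genes, with 1 of 8 by library size alone (4.38% of all tested genes) and 6 of 8 without the ribosomal RNA-derived genes (26.8%). The share of all counts held by the 8 RNAs was 3.44%, 3.36% and 3.76% in the controls and 2.80%, 5.73% and 3.25% in the knockdown libraries. Of the counts left without the ribosomal RNA-derived genes it was 3.99%, 5.89% and 4.58% in the controls and 3.1%, 6.84% and 3.54% in the knockdown libraries, so that scrambled control replicate 2 went from the lowest control to the highest.

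**Figure D3:**
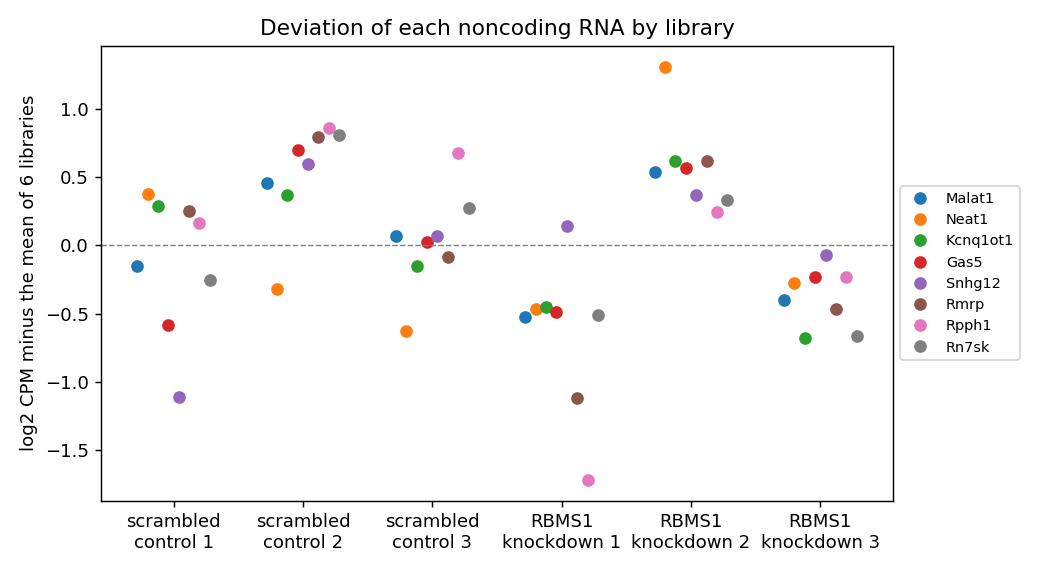
Deviation of each noncoding RNA in each library, as log2 CPM minus its mean over the 6 libraries. In RBMS1 knockdown replicate 2 all 8 points lie above 0, in scrambled control replicate 2 all but Neat1 do, and the lowest point is Rpph1 in RBMS1 knockdown replicate 1.

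The highest value was between 2.09 times (Malat1) and 5.97 times (Rpph1) the lowest over the 6 libraries. For the 7 RNAs with a mean of at least 50 CPM the median of this ratio was 2.79, and for the 3082 tested genes at that level it was 1.55. Their median coefficient of variation was 31.5% in the controls and 51.5% in the knockdown libraries, against 11.2% and 15.1% for those genes. Those genes are not matched to the 7 RNAs in level, and the values compare medians alone.

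Ratios of CPM within a library, which do not depend on its scaling, were compared for 6 pairs with a two-sided exact permutation test on the log2 ratio. With 3 libraries against 3, this test cannot give a p below 0.1. Neat1 to Malat1 was 0.0792, 0.0321 and 0.0340 in the controls and 0.0575, 0.0940 and 0.0602 in the knockdown libraries. The knockdown libraries lay above scrambled control replicates 2 and 3 but not all above replicate 1, and the difference of 0.64 in log2 had an exact p of 0.3 (0.45 adjusted over the 6 pairs). Rmrp to Rpph1 was 2.94, 2.65 and 1.63 in the controls and 4.19, 3.58 and 2.35 in the knockdown libraries, a log2 difference of 0.49 (exact p = 0.3, adjusted 0.45). Here too the groups overlapped, with RBMS1 knockdown replicate 3 below scrambled control replicates 1 and 2. Rn7sk to Malat1 was 0.294, 0.403 and 0.364 in the controls and 0.319, 0.274 and 0.262 in the knockdown libraries, a log2 difference of -0.30 (exact p = 0.2, adjusted 0.45). Kcnq1ot1 to Malat1 had the smallest difference between the groups. It lay between 0.00431 and 0.00679 in the controls and between 0.00414 and 0.00528 in the knockdown libraries, a log2 difference of -0.085 (exact p = 0.8, adjusted 0.8). Gas5 to Snhg12 and Rn7sk to Rpph1 differed by -0.39 and 0.58 in log2 (exact p = 0.3 and 0.4, adjusted 0.45 and 0.48).

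**Figure D4:**
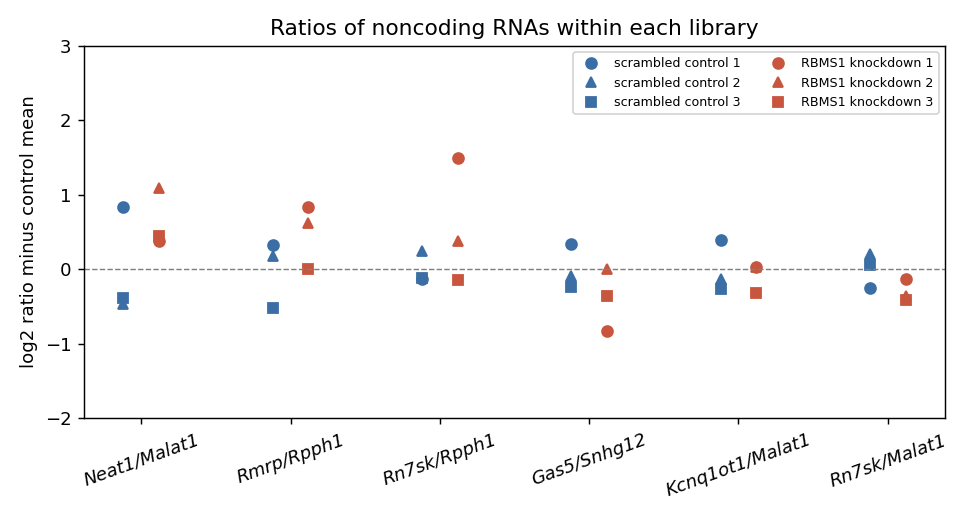
Log2 ratio of each pair of noncoding RNAs within a library, minus the mean of the control libraries, for 3 scrambled control (blue) and 3 RBMS1 knockdown (red) libraries. The groups overlap for each of the 6 pairs, and the farthest point is Rn7sk to Rpph1 in RBMS1 knockdown replicate 1, where the ratio is 49.0.

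Protein partners and relatives of these RNAs were counted in the same fit, from lists written by hand. Of 26 paraspeckle protein genes, 16 lay below 0 and 10 above (median log2 fold change -0.094), and 0 were called. The most abundant, Hnrnpk, an RNA-binding protein that affects which form of Neat1 is made, had 283 ± 9.02 and 296 ± 12.7 CPM (SD, n = 3). Of 23 nuclear speckle genes, 15 lay below 0 and 8 above (median -0.058), with 0 called, and Srrm2, a core protein of speckles, had a log2 fold change of -0.24 (adjusted p = 0.638 by the same edgeR test). The protein subunits of RNase P and RNase MRP had 11 tested rows, with 5 below 0 and 6 above (median 0.028) and 0 called. The most abundant row, of Rpp14, had a log2 fold change of -0.018 (adjusted p = 0.986 by the same edgeR test), and a further row carried that symbol. Over 5 genes at the 3′ end processing of Malat1 and Neat1, 4 lay below 0 and 0 were called (median -0.11).

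Of the 7 genes of the 7SK particle and P-TEFb, 4 lay below 0 and 3 above (median -0.12) and 0 were called. Hexim1, Hexim2 and Larp7, which were chosen after their values were seen, were the genes without overlap between the groups, 3 of 7 where 18.5% of all tested genes had none. Hexim1, whose protein inhibits the kinase when held by 7SK, had 77.6, 73.9 and 72.1 CPM in the controls and 59.5, 54.4 and 65.8 CPM in the knockdown libraries (log2 fold change -0.32, adjusted p = 0.416 by the same edgeR test). Its paralog Hexim2 had 8.01, 8.44 and 8.09 CPM in the controls and 5.03, 4.56 and 4.26 CPM in the knockdown libraries (log2 fold change -0.82, adjusted p = 0.231 by the same edgeR test). Larp7, whose protein stabilizes 7SK RNA, had 10.6, 15.9 and 10.2 CPM in the controls and 6.47, 7.01 and 8.81 CPM in the knockdown libraries (log2 fold change -0.69, adjusted p = 0.342 by the same edgeR test). None of these 3 genes passed the test. Ccnt1, the cyclin of the kinase and the most abundant of the 7 after the mean over all libraries, had a log2 fold change of 0.22 (adjusted p = 0.638 by the same edgeR test), and Cdk9, the kinase itself, had one of 0.089 and was also chosen after its values were seen.

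Among 17 factors of nonsense-mediated decay, which limits spliced Gas5, 9 lay below 0 and 8 above (median -0.083), and 0 were called. Smg1, the most abundant of them and the kinase of the pathway, had a log2 fold change of 0.22 (adjusted p = 0.607 by the same edgeR test). Upf3a, chosen after its values were seen, was the nearest of the 17 to the threshold, with 11.7, 22.3 and 16.2 CPM in the controls and 5.46, 7.60 and 7.05 CPM in the knockdown libraries (log2 fold change -1.29, adjusted p = 0.105 by the same edgeR test). A total of 5 of the 17 had no overlap between the groups, where 18.5% of all tested genes had none.

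Of 9 other snoRNA host genes that were tested, 5 lay below 0 and 4 above (median -0.27), and 0 were called. Snhg5, the most abundant of them, had 25.3, 35.2 and 32.3 CPM in the controls and 10.6, 21.4 and 16.4 CPM in the knockdown libraries. Every knockdown value was below every control value, yet the log2 fold change of -0.93 did not pass (adjusted p = 0.178 by the same edgeR test). Snhg18, chosen after its values were seen, had 18.3, 32.8 and 20.3 CPM in the controls and 8.34, 11.6 and 13.2 CPM in the knockdown libraries (log2 fold change -1.08, adjusted p = 0.146 by the same edgeR test). This pair was 2 of the 9 hosts, where 18.5% of all tested genes had no overlap. Among 14 tested small structural RNAs, such as spliceosomal, Cajal body and signal recognition particle RNAs, 11 lay below 0 (median -0.42), and of 11 other long noncoding RNAs 5 did (median 0.087), with 0 called in each list. At an unadjusted p under 0.05 by edgeR, which 12.4% of all tested genes had, there were 1 paraspeckle gene, 2 genes of the 7SK particle, 4 decay factors, 2 snoRNA hosts and 2 small structural RNAs, and 0 of the speckle, RNase P, Kcnq1 domain, 3′ end processing and long noncoding lists. Of the 2 tested snoRNAs within Gas5, Snhg1 and Snhg12, 1 (Snora44) was also below 0.05. DESeq2, fitted without the filter on low counts, called 3.2% of the 13454 genes to which it gave an adjusted p (430). In these lists it called 6 genes, all lower in knockdown libraries, namely Upf3a, Snhg18, Snhg5, Scarna2 and Scarna13, together with Snord13, which the filter had kept out of the edgeR test (3, 4 and 3 control counts against 0 in all knockdown libraries). It called none of the 8 noncoding RNAs.

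**Figure D5:**
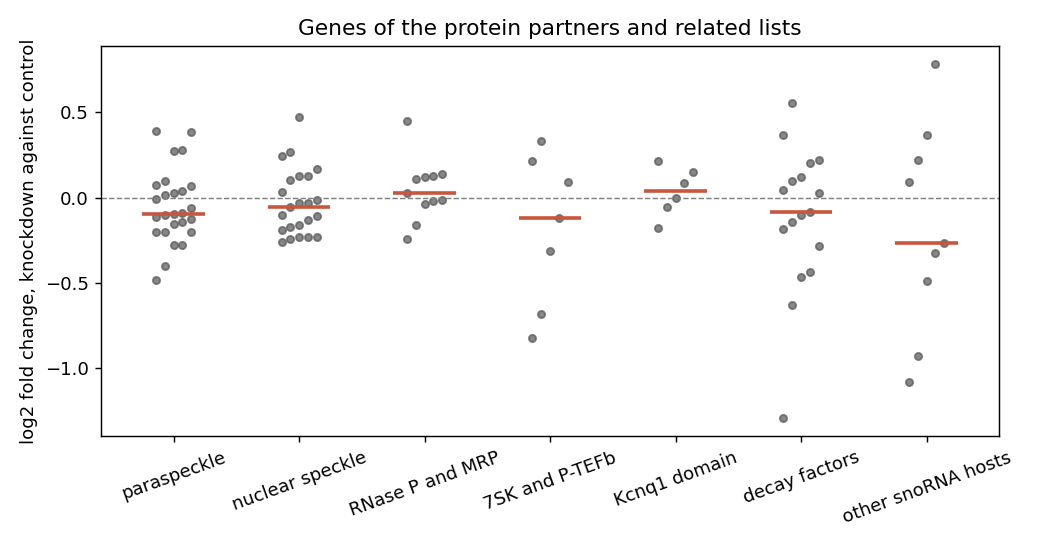
Fitted log2 fold change (RBMS1 knockdown against scrambled control) of each tested gene in 7 lists of partner or related genes, with the median of each list as a bar. The points of the nuclear speckle, RNase P and Kcnq1 domain lists lie between -0.26 and 0.47, and the lowest point is Upf3a at -1.29.

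By Pearson's r of log2(CPM + 1) over the 6 libraries, the tested gene most alike in pattern was Upf3b for Malat1 (r = 0.991), 5330406M23Rik for Neat1 (0.980), Cdk5rap1 for Kcnq1ot1 (0.992) and Htatsf1 for Gas5 (0.988). It was Morn2 for Snhg12 (r = 0.993), Gm25788 for Rmrp (0.993), Gm21596 for Rpph1 (0.993) and Ddx5, an abundant RNA helicase, for Rn7sk (0.993). The points of each pair share library, depth and scaling, and each gene is the highest of 11440, so these values are descriptions of 6 points.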

How the data were processed

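RNA of 3 scrambled control and 3 RBMS1 knockdown cultures of 3T3-L1 cells was sequenced on day 7. Per the study's methods and the submitters' processing notes, the authors depleted ribosomal RNA, trimmed with Trim Galore 0.6.7, used STAR 2.7.10a for alignment to GRCm38 and used Salmon 1.9.0 for quantification. The deposited values are the resulting estimated counts of each gene, not normalized. The annotation release, strand setting and way of summing transcripts are not given in the sources used here. Between 3.97% and 7.78% of the values in a library had decimals (tolerance 1e-06), and rounded values were used.

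The test was edgeR 4.0.16 under R 4.3.3, using glmQLFTest after filterByExpr and TMM scaling (factors 0.642 to 1.23) on the condition, with Benjamini-Hochberg adjustment over 11440 genes and calls at an adjusted p of 0.1 or less. Standard errors of the edgeR fits were computed as the absolute log2 fold change over the square root of the quasi-likelihood F statistic. Intervals were built on them at 95%, and levels of 3 counts cover counting error only. The script was tested on simulated data. Alternatives were DESeq2 1.42.0, limma-voom (limma 3.58.1), other scalings and filters, a replicate block and libraries left out. Leaving out both replicates numbered 2 was added after seeing the data.

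Positions, lengths and transcripts came from GENCODE M21, which held 11402 of the tested genes, and promoters from RefSeq. Genes named are the 8 noncoding RNAs, Rbms1, ribosomal RNA-derived genes, called members of the lists, the most abundant member of each partner list, the gene most alike each RNA, and those said to be chosen after their values were seen. Neighbouring genes were named by position. The RNAs and lists were chosen with earlier results of these data known.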

Additional observations from a re-analysis of the deposited data

How the results depend on the processing

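None of the 8 noncoding RNAs was called under any of the 16 alternatives, and of 128 fitted values 118 kept their sign. Rmrp, Rpph1 and Rn7sk were below 0 in each of the 16, but by library sizes alone Rmrp was at -0.082 and Rn7sk at -0.11. The 10 that turned were Malat1 (0.22), Kcnq1ot1 (0.13) and Gas5 (0.35) by library sizes alone, which raised the median log2 fold change of all genes from 0.0044 to 0.37 and that of the 8 RNAs to 0.18, so that relative to all genes it was -0.20. Further, Gas5 turned without scrambled control replicate 2 (0.27), RBMS1 knockdown replicate 1 (0.096) or RBMS1 knockdown replicate 3 (0.0060), Snhg12 without scrambled control replicate 1 (-0.16), Malat1 without RBMS1 knockdown replicate 1 (0.0019), and Neat1 without RBMS1 knockdown replicate 2 (-0.22) or without both replicates numbered 2 (-0.31). With each library left out, the values ran from -0.60 to 0.0019 for Malat1, -0.22 to 0.90 for Neat1, -0.73 to -0.0035 for Kcnq1ot1, -0.47 to 0.27 for Gas5, -0.16 to 0.56 for Snhg12, -1.11 to -0.19 for Rmrp, -1.37 to -0.56 for Rpph1 and -0.92 to -0.25 for Rn7sk. Without RBMS1 knockdown replicate 2, 3 of the 8 (Kcnq1ot1, Rmrp and Rpph1) had an unadjusted p under 0.05 and none was called. The median of the 8 RNAs was -0.66 when RBMS1 knockdown replicate 2 was left out, -0.079 for scrambled control replicate 2, and -0.035 and -0.023 for RBMS1 knockdown replicates 1 and 3.

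Over all genes, 140 were called by edgeR, 430 by DESeq2 (which was run without the filter), 268 with no filter on low counts, 0 without both replicates numbered 2 (where fewer samples were fitted), and between 12 and 696 with each library left out. Of calls, 74.3% were lower in knockdown libraries, against 33.3% by library sizes alone. The partner and related lists had 0 calls by edgeR, 6 by DESeq2, 1 with no filter and 0 to 2 with each library left out. With the replicate block, 39 genes were called and the adjusted p of Rpph1 was 0.216. The deviations of libraries with the same number correlated at -0.16, 0.11 and -0.043, so the numbers were not taken to pair the cultures. The causes of these changes were not tested. Snhg12 had the least depth, at 18 to 81 counts per library.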
